A study of Mus musculus with 4 samples.

Results

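Ephrin receptors and ephrins were examined in leukemic cells that had lost Msi2, the gene of a Musashi RNA-binding protein. The set holds 10 genes, 6 receptors (Epha2, Epha4, Epha7, Ephb2, Ephb4 and Ephb6) and 4 ligands (Efna1, Efna4, Efnb1 and Efnb2), out of 23284 gene rows. They were taken by gene symbol, and were selected on their CPM in these same Msi2 -/- and control libraries. Their differences between the genotypes are therefore given as a description. Test calls on them are listed below, but nothing is read from those calls. Cells had been sorted on c-Kit, a receptor of immature blood cells, and the c-Kit high leukemic fraction was sequenced from C57BL/6 mice: 2 Msi2 -/- mice and 2 Msi2 flox/flox mice, which serve as controls, with 1 library per mouse. The series title places the cells in MLL leukemia; the driver construct, the Cre that removed Msi2, and the age and sex of the mice are not stated in the sources used.

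Eph receptors are the largest family of receptor tyrosine kinases. Their ligands, the ephrins, are held on the surface of neighbouring cells, so signalling needs cell contact and can run both into the receptor cell (forward) and into the ephrin cell (reverse). A-type ephrins are tethered by a lipid anchor and mostly bind EphA receptors, while B-type ephrins span the membrane and mostly bind EphB receptors. The family is best known for axon guidance, vessel patterning and tissue boundaries; in blood it has been linked to adhesion and migration. EPHA7 has been described as raised by an MLL fusion protein in human leukemia cells.

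The 4 libraries held between 72273679 and 87564774 gene counts, and 3 counts correspond to 0.0343 to 0.0412 CPM, the count of a gene scaled by library size. Msi2 itself had 0.0915 and 0.221 CPM in the Msi2 -/- mice, against 34.6 and 48.9 CPM in the controls. All 7 progenitor markers listed, among them Kit, Ptprc, Hoxa9 and Meis1, were above 1 CPM. Kit stood at 68.1 and 57.1 CPM in Msi2 -/- cells, against 50.4 and 51.9 CPM in controls. The 7 markers summed to 3250 and 3406 CPM in Msi2 -/- cells, against 5355 and 6248 CPM in controls, mostly from Mpo, at 2116 and 2159 CPM in Msi2 -/- cells and 4001 and 4952 CPM in controls. Myb was also lower in both Msi2 -/- libraries, Kit was higher in both, and Ptprc, Hoxa9, Hoxa10 and Meis1 overlapped. The sum of the 7 was lower in both Msi2 -/- libraries, as Epha7 was, and its part in the Epha7 values was not tested. Xist, which is transcribed in female cells, had 0.469 and 0.624 CPM in the Msi2 -/- libraries, against 1454 and 654 CPM in control 1 and control 2. A sum of 4 Y-linked genes had 224 and 241 CPM in the Msi2 -/- libraries, against 41.1 and 184 CPM in control 1 and control 2, so both controls held both kinds of transcript. The library names carry a number that is shared within a genotype and differs between them; its meaning is not stated, and genotype, that number and the sex-linked transcripts cannot be told apart. Over all 13215 genes with enough counts to be tested, edgeR's quasi-likelihood test at an adjusted p under 0.05 called 0.00757%, a single gene, and DESeq2 called 6.01% of 13038.

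The members that carried the difference were Epha7 and Epha2. Their upstream sequences are shown because these were the most abundant receptor transcripts in control and Msi2 -/- cells. Both genes lie on chromosome 4, far apart, on the plus strand. The 250 bases before each start, from RefSeq on GRCm38.p6, span chr4:141300971-141301220 for Epha2 and chr4:28812881-28813130 for the upstream of the 2 listed Epha7 starts; capitals mark CG dinucleotides.
Epha2: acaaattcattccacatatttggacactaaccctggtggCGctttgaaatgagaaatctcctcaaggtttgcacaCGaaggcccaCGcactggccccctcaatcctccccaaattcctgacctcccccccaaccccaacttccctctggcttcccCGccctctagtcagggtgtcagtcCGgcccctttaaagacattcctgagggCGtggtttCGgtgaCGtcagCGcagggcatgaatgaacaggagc
Epha7: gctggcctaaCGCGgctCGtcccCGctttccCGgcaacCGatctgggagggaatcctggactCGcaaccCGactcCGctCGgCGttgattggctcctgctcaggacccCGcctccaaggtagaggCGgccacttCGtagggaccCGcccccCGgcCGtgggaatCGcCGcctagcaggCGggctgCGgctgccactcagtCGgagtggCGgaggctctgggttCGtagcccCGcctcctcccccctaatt
The Epha2 stretch holds 9 CG dinucleotides at 55.6% G and C, and the Epha7 stretch holds 25 at 69.2%. The medians over 32851 listed mouse promoter windows were 6 and 52.4%. Among those windows 59.7% held fewer CG dinucleotides than Epha2 and 89.3% fewer than Epha7. All 10 members matched the table, with 12 windows.

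Letter matches for 4 motifs of blood and leukemia factors were sought on both strands of these windows. TGACAG, the letters bound by MEIS proteins, was in the window of 1 member, Efnb2, and in 15.9% of all windows. TGATTNAT (HOX with PBX), CACGTG (the E-box bound by MYC) and GAGGAAGT (PU.1) were in 0 of the 12 windows, and in 2.82%, 6.02% and 2.44% of all windows. TGACGTCA, the cyclic AMP response element, was noticed in the Epha2 letters and then counted; it was in no other member's window and in 1.55% of all windows. These are matches of letters only.

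Msi2 protein is known to bind UAG in the 3′ untranslated region of target RNAs. In the 3′ region of 1 GENCODE M21 transcript per gene, Epha7 held 51 TAG in 3496 bases, or 14.6 per kb, and Epha2 held 7 in 866 bases, or 8.08 per kb. The median over 16531 genes was 11.8 per kb. Epha7 was above 75.3% of those genes, and above 59.9% of the genes whose A and T content was within 2 percentage points of its own. Epha2 was above 19.9% of all genes and above 27.6% of genes of like A and T content. The other members ran from 2.28 per kb in Ephb4 to 12.4 per kb in Efnb2. The 30-base stretches with the most TAG, in capitals, lie on GRCm38 at chr4:141328901-141328930 and chr4:28966385-28966414, both on the plus strand.
Epha2 3′ region: TAGggcactgtacgccccgccccTAGtTAG
Epha7 3′ region: ttttcTAGtaaTAGatttaTAGttgagTAG
Whether Msi2 binds either stretch was not tested.

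Epha7, an A-type receptor, was the most abundant transcript of the family in control cells and was lower in both Msi2 -/- libraries. It had 0.801 and 10.6 CPM in Msi2 -/- replicates 1 and 2 (70 and 815 counts), against 46.1 and 82.2 CPM in control 1 and control 2 (3740 and 5994 counts). The groups did not overlap, but the Msi2 -/- libraries lay 13.2-fold apart, whereas the controls lay 1.78-fold apart. The means were 5.70 ± 6.92 CPM in Msi2 -/- cells and 64.2 ± 25.5 CPM in controls (SD, n = 2 each), an 11.3-fold lower mean. The log2 fold change, Msi2 -/- minus control, was -3.50 (SE 1.25), rank 94 from the lowest of 13215 tested genes. Without Msi2 -/- replicate 2 it was -6.32, and without Msi2 -/- replicate 1 it was -2.59. The size of the Epha7 difference thus rested on which Msi2 -/- mouse was counted. Msi2 itself had 8 and 17 counts in Msi2 -/- replicates 1 and 2, so replicate 2 was the higher for both genes; whether the remaining Msi2 reads bear on Epha7 was not tested.

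Epha2, an A-type receptor found on many epithelial and tumour cells, was higher in both Msi2 -/- libraries. It had 15.1 and 12.9 CPM in Msi2 -/- replicates 1 and 2 (1319 and 991 counts), against 2.96 and 1.47 CPM in control 1 and control 2 (240 and 107 counts). The groups did not overlap, and here the Msi2 -/- libraries were close, 1.17-fold apart, while the controls were 2.02-fold apart. The mean was 6.32-fold higher in Msi2 -/- cells. The log2 fold change was 2.66 (SE 0.41), rank 44 from the highest. It ran from 2.24 without control 2 to 3.25 without control 1.

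The remaining EphA member, Epha4, a receptor studied in neurons and T cells, had 0 counts in all 4 libraries. That allows a level of up to 0.0343 and 0.039 CPM in the Msi2 -/- libraries and 0.037 and 0.0412 CPM in the controls, by counting error alone.

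**Figure D1:**
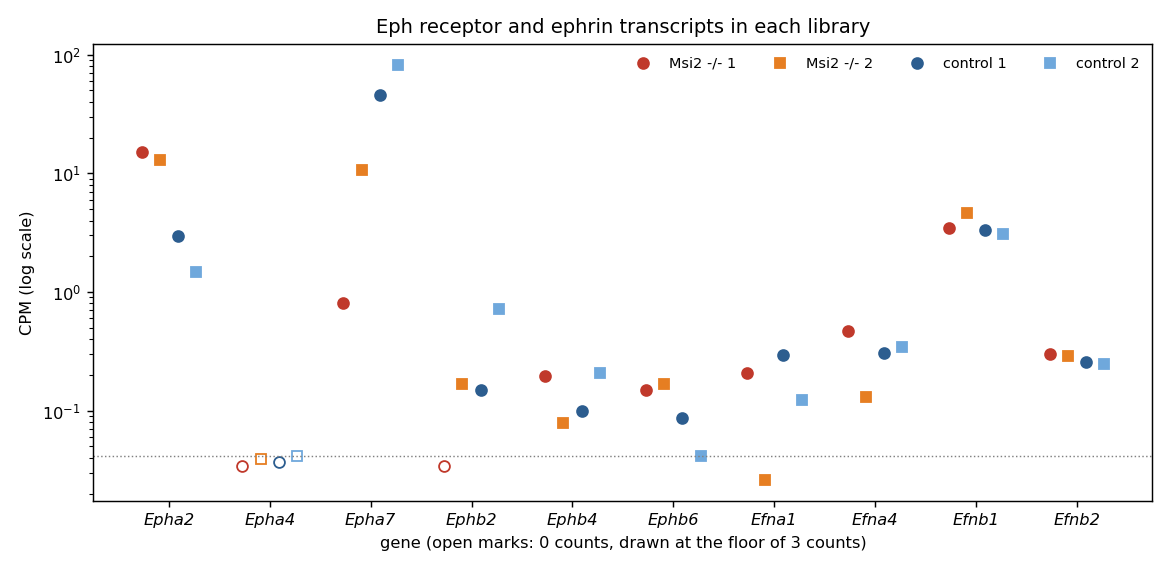
CPM of the 10 genes in each library on a log axis; circles are replicate 1 and squares replicate 2, red and orange are Msi2 -/- and blue are controls, and the dotted line is the highest floor of 3 counts. Epha2 lies higher and Epha7 lower in both Msi2 -/- libraries; Efnb1 is the only other member above 1 CPM.

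The B-type receptors were scarce in every library. Ephb2, a receptor of axons and intestinal crypts, had 0 and 13 counts in Msi2 -/- replicates 1 and 2, against 12 and 52 counts in control 1 and control 2, or at most 0.713 CPM. The groups overlapped. The fitted log2 fold change of -2.36 (SE 1.59) became -1.33 without Msi2 -/- replicate 1, -3.08 without control 1 and -0.82 without control 2. Without Msi2 -/- replicate 2 the Msi2 -/- group is at 0 and no fold is given. Ephb4, the receptor of venous endothelium, had 0.194 and 0.078 CPM in Msi2 -/- cells, against 0.0987 and 0.206 CPM in controls. Its groups overlapped, with a log2 fold change of -0.14 (SE 0.75). Ephb6, a receptor whose kinase domain lacks catalytic activity, had 13 and 13 counts in Msi2 -/- cells, against 7 and 3 counts in controls. Its groups did not overlap, at 0.149 and 0.169 CPM in Msi2 -/- cells and 0.0863 and 0.0412 CPM in controls. The log2 fold change of Ephb6 was 1.28 (SE 0.64), on a few reads per library. The gene passed the filter on low counts only through the Msi2 -/- libraries, where it was higher.

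Among the ligands, Efnb1, for ephrin-B1, was the most abundant. It had 3.46 and 4.67 CPM in Msi2 -/- cells, against 3.33 and 3.06 CPM in controls. The groups did not overlap, but the gap between them was narrower than the distance between the Msi2 -/- libraries. The mean was 4.06 ± 0.857 CPM in Msi2 -/- cells and 3.19 ± 0.191 CPM in controls (SD, n = 2 each), and the log2 fold change was 0.35 (SE 0.27). Efnb1 lies on the X chromosome; Xist was far lower in both Msi2 -/- libraries than in the controls, and the part of this in the Efnb1 values was not tested. Efnb2, for ephrin-B2, the ligand of arterial endothelium, had 26 and 22 counts in Msi2 -/- cells, against 21 and 18 counts in controls. Its log2 fold change was 0.20 (SE 0.42), a small difference between groups that did not overlap.

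The A-type ephrins among the members, Efna1 and Efna4, differed more between the Msi2 -/- mice than between the genotype means. Efna1, a ligand of EPHA2 in human cells, had 0.206 and 0.026 CPM in Msi2 -/- cells, against 0.296 and 0.123 CPM in controls. The Msi2 -/- libraries lay on 18 and 2 counts, and the groups overlapped (log2 fold change -0.83, SE 1.06). Without Msi2 -/- replicate 1 the log2 fold change of Efna1 was -2.93, without replicate 2 it was -0.03, without control 1 -0.07 and without control 2 -1.32. Efna4 had 0.469 and 0.13 CPM in Msi2 -/- cells, against 0.308 and 0.343 CPM in controls. Both controls lay between the Msi2 -/- libraries (log2 fold change -0.11, SE 0.73). In the GENCODE M21 annotation 168 exon bases of Efna4 overlap another gene on the opposite strand, and the strand setting of the counting is not stated in the sources used.

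By count, 9 of the 10 members passed the filter on low counts, and the groups did not overlap for 4 members that lay higher and 1 that lay lower in Msi2 -/- cells. Ephb6, among the 4 higher, passed the filter only through the Msi2 -/- libraries, at 13 and 13 counts, against 7 and 3 counts in controls. Over all genes tested, 23.7% lay higher without overlap and 24.6% lower, 48.3% in all. EdgeR's quasi-likelihood test called 0 of the 9 at an adjusted p under 0.05; 1 higher and 1 lower member had an unadjusted p under 0.05, where 12.9% of all genes did. DESeq2 gave an adjusted p for 7 members and called 1, where it called 6.01% of all genes. Since the members were picked with this contrast known, nothing is read from these counts. The median log2 fold change of the 9 was -0.11, and that of all genes tested was -0.0020.

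**Figure D2:**
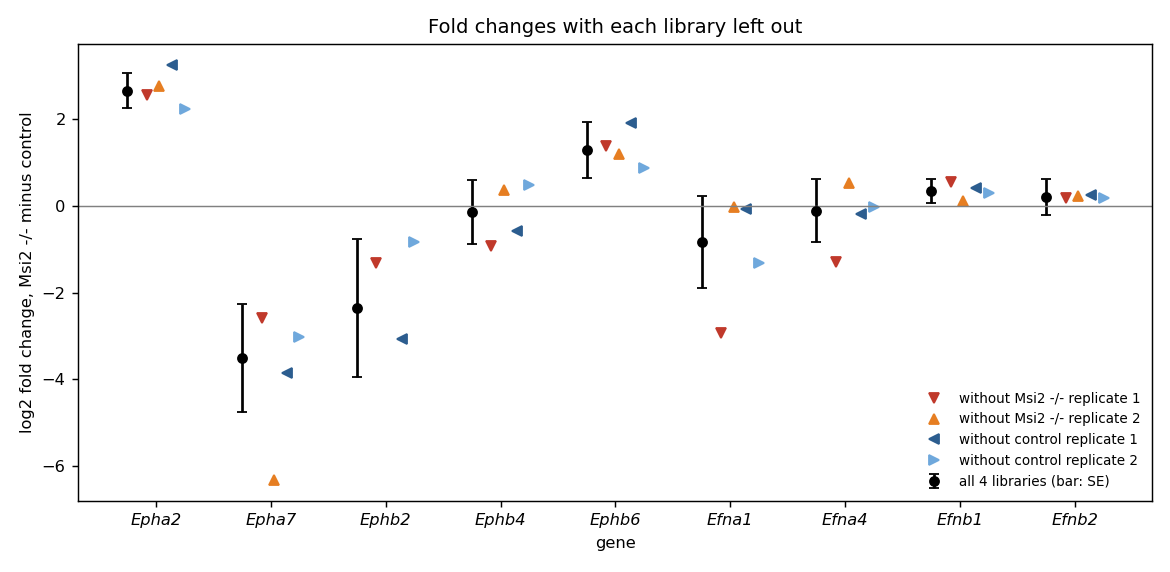
Log2 fold change, Msi2 -/- minus control, of the 9 tested members with all 4 libraries (black, bar is the SE) and with each library left out (triangles). Epha2 stays between 2.24 and 3.25 and Epha7 between -6.32 and -2.59; Ephb4 and Efna4 lie on both sides of 0. Ephb2 without Msi2 -/- replicate 2 is not drawn, as its Msi2 -/- group is then at 0.

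The make-up of the family's transcripts differed between the genotypes. Of the reads on all 22 mouse Eph and ephrin genes, Epha7 took 3.27% (95% Wilson interval 2.60 to 4.11%) and 34.5% (32.6 to 36.4%) in Msi2 -/- replicates 1 and 2. In control 1 and control 2 it took 82.0% (80.9 to 83.1%) and 90.0% (89.2 to 90.7%). Epha2 took 61.6% (59.6 to 63.7%) and 41.9% (39.9 to 43.9%) in the Msi2 -/- libraries, against 5.26% (4.65 to 5.95%) and 1.61% (1.33 to 1.94%) in the controls. These intervals cover counting error only. There were 18.8 and 1.22 Epha2 reads for each Epha7 read in the Msi2 -/- libraries, against 0.0642 and 0.0179 in the controls. Epha2 was thus the leading family transcript in both Msi2 -/- mice and Epha7 in both controls, with Msi2 -/- replicate 2 holding both.

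Genes were set side by side per length of exons. In Msi2 -/- cells Epha2 led with 3.86 and 3.29 CPM per kb. Efnb1 had 1.06 and 1.43 CPM per kb there, Epha7 had 0.106 and 1.40 CPM per kb, and the ligand gene Efnb3, which is not among the 10, had 1.14 and 0.466 CPM per kb. The order of these 3 genes differed between the Msi2 -/- libraries. In controls Epha7 led with 6.09 and 10.9 CPM per kb, followed by Efnb1 with 1.02 and 0.939 CPM per kb. Efnb3 with 0.647 and 0.793 CPM per kb and Epha2 with 0.756 and 0.375 CPM per kb came next in the controls, and these did not differ beyond their spread. The other 7 members lay under 0.3 CPM per kb in every library.

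**Figure D3:**
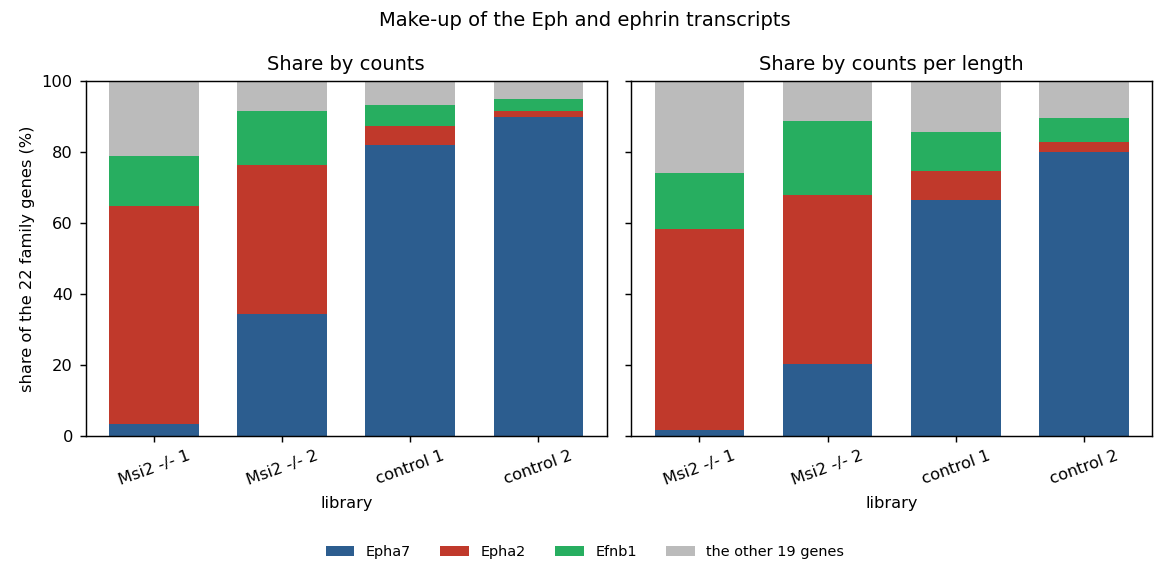
Share of the 22 Eph and ephrin genes taken by Epha7, Epha2, Efnb1 and the other 19 genes in each library, by counts (left) and by counts per exon length (right). Epha2 takes 61.6% and 41.9% of the counts in the Msi2 -/- libraries, and Epha7 takes 82.0% and 90.0% in the controls.

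By class, the sums of counts were led by A-type receptors and, among the ligands, by B-type ephrins. The 9 EphA genes summed to 16.0 and 23.7 CPM in Msi2 -/- cells, against 49.4 and 83.9 CPM in controls. The 5 A-type ephrins summed to 0.744 and 0.208 CPM in Msi2 -/- cells, against 0.814 and 0.631 CPM in controls. The 3 B-type ephrins summed to 7.39 and 6.43 CPM in Msi2 -/- cells, against 5.65 and 5.83 CPM in controls, while the 5 EphB genes summed to 0.343 and 0.416 CPM in Msi2 -/- cells, against 0.407 and 0.988 CPM in controls. The whole family summed to 24.5 and 30.7 CPM in Msi2 -/- cells, against 56.3 and 91.4 CPM in controls. The EphA and whole-family sums were lower in both Msi2 -/- libraries, the B-type ephrin sum was higher in both, and the sums of A-type ephrins and of EphB genes overlapped. Both lower sums rested on Epha7, at 0.801 and 10.6 CPM in Msi2 -/- cells, against 46.1 and 82.2 CPM in controls. Epha2, part of the same sums, was higher in both Msi2 -/- libraries. The 19 genes other than Epha7, Epha2 and Efnb1 summed to 5.14 and 2.60 CPM in Msi2 -/- cells, against 3.84 and 4.62 CPM in controls, and overlapped. In sorted bulk cells, fewer cells with a transcript and less of it per cell cannot be told apart.

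Of the 12 family genes outside the set, 10 did not pass the filter on low counts and 4 of these had 0 counts in all libraries. By edgeR 0 were called, 0 had an unadjusted p under 0.05, and DESeq2 called 0. Efnb3, for ephrin-B3, had 3.64 and 1.48 CPM in Msi2 -/- cells, against 2.06 and 2.52 CPM in controls, and the groups overlapped (log2 fold change 0.16, SE 0.51; adjusted p = 0.915 by edgeR). Epha1 had 0.103 and 0.169 CPM in Msi2 -/- cells, against 0.271 and 0.206 CPM in controls (log2 fold change -0.81, SE 0.54; adjusted p = 0.572 by edgeR). Its groups did not overlap. Epha1 shares 236 exon bases with Zyx on the opposite strand, a gene at 64.1 and 69.2 CPM in Msi2 -/- cells and 54.4 and 48.8 CPM in controls.

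Genes that act around the receptors were listed by role, with earlier results of these data known, so their shares are a description. In 3 lists with 45 genes, 40 were tested and edgeR called 0 at an adjusted p under 0.05. With no adjustment, 4 were higher and 4 lower with p under 0.05 by edgeR, where 12.9% of all genes had such a p. DESeq2 called 2 higher and 3 lower, 12.5% against 6.01% of all genes. The median log2 fold change of the 40 was 0.04.

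Among kinases and phosphatases at Eph receptors, 14 of 15 were tested and DESeq2 called 1 higher and 2 lower (median log2 fold change 0.04). Ptk2 encodes focal adhesion kinase, which links Eph receptors to integrin adhesion. It had 2.22 and 2.40 CPM in Msi2 -/- cells, against 6.66 and 7.01 CPM in controls (log2 fold change -1.56, SE 0.22; adjusted p = 0.271 by edgeR and 1.1e-07 by DESeq2). The groups lay far apart and the libraries of each genotype close together. Yes1, a SRC family kinase, had 1.19 and 1.31 CPM in Msi2 -/- cells, against 3.97 and 2.69 CPM in controls (log2 fold change -1.41, SE 0.33; adjusted p = 0.315 by edgeR and 0.0209 by DESeq2). Ptpn1, the tyrosine phosphatase PTP1B, which dephosphorylates Eph receptors among other receptors, had 212 and 203 CPM in Msi2 -/- cells, against 153 and 146 CPM in controls. The difference was 0.48 on the log2 scale (SE 0.07; adjusted p = 0.271 by edgeR and 1.11e-06 by DESeq2). Src, named after its values were seen, had 0.675 and 0.273 CPM in Msi2 -/- cells, against 0.185 and 0.0823 CPM in controls (log2 fold change 1.81, SE 0.73; adjusted p = 0.407 by edgeR).

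Of the 16 adaptor genes, which couple phosphorylated receptors to signalling, all were tested and DESeq2 called 0 (median log2 fold change -0.02; by edgeR 0 higher and 1 lower before adjustment). Grb10 had 0.103 and 0.351 CPM in Msi2 -/- cells, against 1.02 and 0.933 CPM in controls (log2 fold change -2.11, SE 0.68; adjusted p = 0.362 by edgeR). Dok1 had 50.04 and 58.8 CPM in Msi2 -/- cells, against 45.7 and 40.3 CPM in controls (log2 fold change 0.34, SE 0.13; adjusted p = 0.393 by edgeR). Neither pair of groups overlapped.

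Of 14 genes of reverse signalling, shedding and turnover, 10 were tested and DESeq2 called 1 each way (median log2 fold change 0.13). Cbl, a ubiquitin ligase that sends activated receptors such as EphA2 to degradation, had 97.7 and 82.3 CPM in Msi2 -/- cells, against 49.7 and 58.2 CPM in controls (log2 fold change 0.74, SE 0.13; adjusted p = 0.289 by edgeR and 0.000254 by DESeq2). Adam17, a surface protease, had 94.9 and 98.6 CPM in Msi2 -/- cells, against 123 and 140 CPM in controls (log2 fold change -0.44, SE 0.09; adjusted p = 0.297 by edgeR and 0.00715 by DESeq2). In both genes the groups were apart by more than the distance within either genotype.

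**Figure D4:**
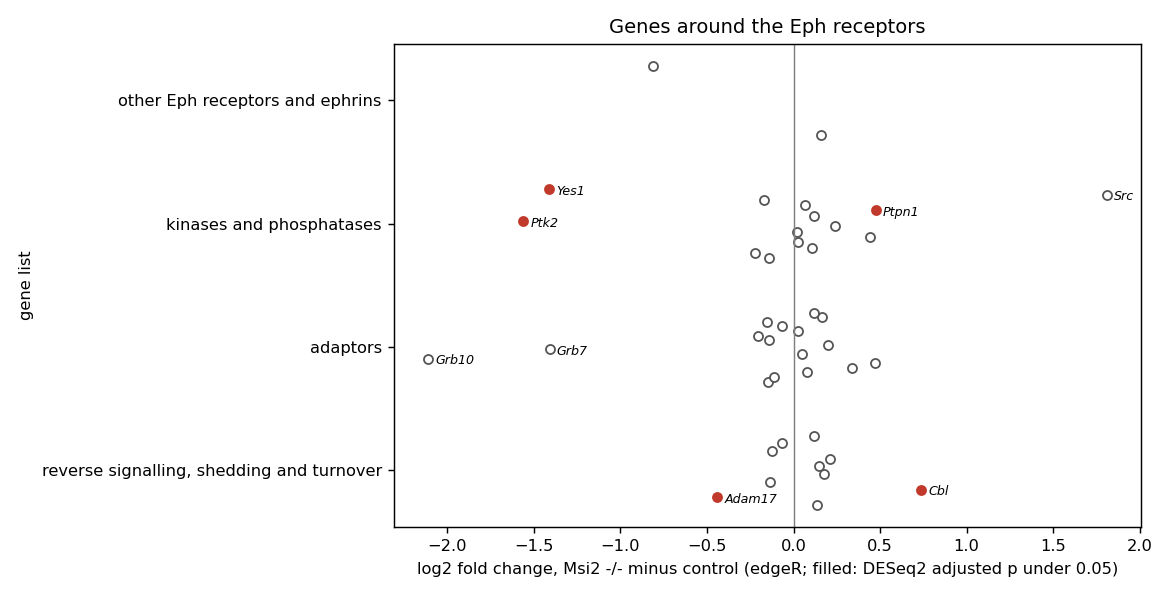
Log2 fold change, Msi2 -/- minus control, of each tested gene in the 4 lists around the 10 members, 1 point per gene; filled points have a DESeq2 adjusted p under 0.05 and vertical offsets only separate points. Most points lie near 0, and Ptk2 at -1.56 is the lowest filled point and Cbl at 0.74 the highest.

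The genes nearest to Epha2 in profile were Sh2d1b1, Serpina11 and Il1f9, at 0.73, 0.77 and 0.77. Profiles were compared by Euclidean distance of centred log2 CPM over the 4 libraries, with 0.5 CPM added to each value. Sh2d1b1, which encodes an adaptor of SLAM family receptors, had 4.63 and 6.92 CPM in Msi2 -/- cells, against 0.851 and 0.713 CPM in controls. Serpina11 had 1.73 and 1.26 CPM in Msi2 -/- cells, against 0.037 and 0.0137 CPM in controls. Its log2 fold change was 5.77, and its control values lay far below the 0.5 CPM added. Il1f9, an interleukin 1 family cytokine, had 8.07 and 12.8 CPM in Msi2 -/- cells, against 2.69 and 1.66 CPM in controls. For Epha7, added after its values were seen, the nearest were Elavl2, Pcdh7 and Eya1, at 1.03, 1.25 and 1.31. Elavl2, for a neuronal RNA-binding protein, had 0.0114 and 1.70 CPM in Msi2 -/- cells, against 21.9 and 38.4 CPM in controls. Pcdh7, for a protocadherin, had 0.0458 and 2.74 CPM in Msi2 -/- cells, against 19.4 and 78.7 CPM in controls. Eya1, for a transcriptional partner of homeobox proteins, had 0.652 and 27.8 CPM in Msi2 -/- cells, against 81.4 and 73.7 CPM in controls. In all 3, Msi2 -/- replicate 1 was the lower of the Msi2 -/- libraries, as for Epha7. The genes were picked for likeness over these same 4 libraries, so the shared order follows from the choice and is a description only.

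Markers of other cells that the sort could hold were set beside these results. For endothelium, where Ephb4 and Efnb2 are prominent, 3 of 8 markers reached 1 CPM in any library, Emcn was at 0 throughout and Cdh5 was at most 0.123 CPM. The list summed to 48.4 and 43.6 CPM in Msi2 -/- libraries, against 34.2 and 44.7 CPM in controls, mostly from Egfl7. For epithelium, where Epha2 is common, Krt19 was at 0 in all libraries, and 3 of 5 markers reached 1 CPM in any library. Krt18 had 6.03 and 0.468 CPM in Msi2 -/- libraries, against 1.59 and 3.99 CPM in controls. Cdh1 had 3.07 and 3.68 CPM in Msi2 -/- libraries, against 1.75 and 4.66 CPM in controls. Epcam had 2.19 and 0.546 CPM in Msi2 -/- libraries, against 0.666 and 0.933 CPM in controls. The 5 epithelial markers summed to 11.3 and 4.72 CPM in Msi2 -/- libraries, against 4.07 and 9.62 CPM in controls, and the groups overlapped. Their part in the Epha2 values was not tested. The 9 late neutrophil markers, of which 8 reached 1 CPM, summed to 1398 and 2225 CPM in Msi2 -/- libraries, against 1024 and 678 CPM in controls. The sum was higher in both Msi2 -/- libraries, as Epha2 was, but its members differed. S100a8 had 536 and 938 CPM in Msi2 -/- libraries, against 273 and 210 CPM in controls. S100a9 had 348 and 565 CPM in Msi2 -/- libraries, against 195 and 146 CPM in controls. Lcn2 and Ltf were also higher in both Msi2 -/- libraries, Ngp and Camp overlapped, and Mmp9 was lower in both. Cxcr2 had 1.58 and 3.57 CPM in Msi2 -/- libraries, against 6.59 and 9.40 CPM in controls, and Mmp8 had 2.53 and 4.12 CPM in Msi2 -/- libraries, against 3.72 and 19.7 CPM in controls. The part of these markers in the Epha2 values was not tested. The 7 monocyte markers found, of which 6 reached 1 CPM and 0 were at 0 throughout, summed to 55.8 and 406 CPM in Msi2 -/- replicates 1 and 2, against 174 and 263 CPM in control 1 and control 2. Msi2 -/- replicate 1 was lowest for this list as for Epha7, while replicate 2 was highest for the list and not for Epha7; the list's part in the Epha7 values was not tested.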

How the data were processed

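The authors deposited raw read counts per gene symbol, 1 library per mouse, which they did not normalize. Per the submitters' processing notes, the tools were Trimmomatic, STAR, HTSeq and DESeq (no versions) and the build was mm9; annotation and strand setting are not stated. The 5 rows that name no gene took 19.1% to 20.1% of counts and were left out.

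Libraries were scaled by TMM and tested with edgeR 4.0.16 in R 4.3.3 (quasi-likelihood, genotype as the only term, filterByExpr with minimum count 10 and minimum total 15, Benjamini-Hochberg over 13215 genes). SEs come from the F statistic. DESeq2 1.42.0 was the other tool; RLE scaling, other filters, a replicate block and leaving out each library were also tried. Replicates differed far beyond sampling noise (chi-square per gene 151 in Msi2 -/- and 62.1 in control libraries), so each counts as 1 sample.

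The members and lists were chosen with earlier results of these data known, and 1 further signalling list is not reported here. Named genes were all members, list genes called by either tool or else the 2 of smallest p, Msi2, and the 3 genes nearest to Epha2. Lengths are unions of GENCODE M21 exons on GRCm38, a later build than that of the counts. Promoter windows are from RefSeq, GRCm38.p6, and 3′ regions under 200 bases were left out.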

Additional observations from a re-analysis of the deposited data

How the results depend on the processing

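With RLE scaling, no filter or DESeq2, the log2 fold changes of all 9 tested members moved by less than the spread between replicates. Leaving out a library moved most of them, and the sign turned for Ephb4, to 0.36 without Msi2 -/- replicate 2 and 0.47 without control 2, and for Efna4, to 0.53 without Msi2 -/- replicate 2; the counts behind them are few, and the cause was not tested. Over the libraries left out, Ephb4 ran from -0.93 to 0.47, Efna4 from -1.30 to 0.53, Epha2 from 2.24 to 3.25, and Epha7 from -6.32 to -2.59. The median of the tested members ran from -0.93 to 0.23 with a library left out, being 0.17 without control 2, and was 0.34 at 1 CPM in 2 libraries, where 3 members were left and 2 of them lay higher without overlap. With a library left out, 4 to 5 members lay higher and 2 to 4 lower without overlap. A group then holds a single library, so groups separate more easily than in the full comparison. The share over all genes is not given for these settings, and nothing is read from these counts.

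Over all genes, edgeR called 0 to 23 higher and 0 to 83 lower with a library left out, 6 lower with no filter, and 0 lower with the replicate block. DESeq2 called 419 higher and 364 lower, and 2 higher and 3 lower signalling genes. The block moved Efna1 to -1.12 and left 0 calls on the lists. What same-numbered libraries share beyond the number is not stated. Across genes, their deviations from the group means correlated at 0.0101. With 2 mice per genotype, members of a few counts per library were measured too thinly for small differences to be detectable at this depth.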
